A study of Homo sapiens with 12 samples.

Results

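The genes described here are 35 markers of nephron segments, a list of 17 proximal tubule, 12 loop to collecting duct and 6 podocyte genes, found by symbol among the 20979 entries (19156 distinct symbols) of 1 table of FPKM values (fragments mapped to a gene, scaled by transcript length and library size). Of the 35, 34 had an entry, and AQP3 was not analysed here. PolyA RNA was sequenced from 3 established human kidney lines bought from a cell bank: A704 and CAKI-1, which the labels call cancer and which are renal carcinoma lines, and HK2, which the labels call normal and which is an immortalised proximal tubule line. Each line was transfected at 25 nM with a lipid reagent, and RNA was taken after 48 h, with 4 reagents: non-target control, LATS and a pair of PTPN14 siRNAs. The latter are named PTPN14-1 and PTPN14-2 after the sample titles, and the descriptions number them the other way round. This gave 12 libraries, 1 for each line and siRNA. Read in the order the labels list them, CAKI-1 was grown in McCoy, HK2 in Keratinocyte and A704 in RPMI medium, all with 10% serum, so line and medium cannot be told apart. The study concerns Hippo signalling in a rare renal tumour of tubular and spindled cells, and the LATS kinases and the phosphatase PTPN14 restrain YAP, the coactivator of that pathway.

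Blood is filtered in the glomerulus, where podocytes form a slit diaphragm from nephrin and its partners. The proximal tubule then recovers most of the filtrate: megalin and cubilin take up filtered protein, brush border peptidases trim peptides and amino acids, and the cells make glucose, creatine precursors and glucuronides. The loop of Henle, distal tubule and collecting duct follow, each with its own channels, such as the epithelial sodium channel and vasopressin-regulated aquaporin 2, and with acid-secreting intercalated cells. Lines kept in culture are known to retain some of these genes and to lose others.

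The siRNA targets were checked first. PTPN14 stood at 21.4, 28.7 and 25.2% of its level in the line's own control (A704, HK2, CAKI-1) with PTPN14-1 and at 37.3, 37.5 and 31.2% with PTPN14-2. LATS1 stood at 30.7, 27.9 and 22.5% of control with the LATS siRNA, whereas LATS2 stood at 110, 98.2 and 122%; which LATS gene the reagent was aimed at is not stated in the labels. Depth, estimated from the whole-read steps of low values, was between 17.0 and 23.2 M reads, with 10862 to 11082 genes over FPKM 1 in each library. Markers of endothelium were at or below FPKM 1 in all 12 libraries (8 of 8, summed level 0.09 to 0.63), and of 7 leukocyte markers only CD68, a lysosomal protein, exceeded 1 in any library, while CD3E was at 0 in all 12. Of 8 fibroblast and mesangium markers, 2 exceeded 1 in all 4 HK2 libraries: LUM (lumican, mean 60.3) and DCN (decorin, mean 7.10). COL1A1 averaged 1.23 FPKM in HK2, 0.91 in A704 and 0.54 in CAKI-1, while COL1A2 and COL3A1 averaged 0 in HK2. The list's summed level was 54.6 to 83.5 in HK2, 0.77 to 1.57 in A704 and 1.21 to 2.57 in CAKI-1. Its part in the line differences below was not tested.

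Each line carried a partial and different set of segment markers. Of the 34 genes, 13 exceeded FPKM 1 in all 4 A704 libraries (9 proximal tubule, 1 loop to collecting duct, 3 podocyte), 15 in all 4 HK2 libraries (10, 3 and 2) and 12 in all 4 CAKI-1 libraries (7, 2 and 3). Over all entries the shares were 51, 50.9 and 50.8%. Only UGT2B7, DPP4, MME, PDZK1, GPX3 and SYNPO, 6 of the 34, exceeded 1 in all 12 libraries. A further 6 exceeded it in all libraries of exactly 1 line: CUBN in A704, MIOX and ATP6V0D2 in HK2, and ANPEP, GATA3 and PLA2R1 in CAKI-1. At the other end, 12 genes were at or below 1 in all 12 libraries, and UMOD, AQP2 and TFAP2B were listed at 0 in all 12. In RNA from whole cultures, fewer cells expressing a gene and less RNA per cell cannot be told apart.

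**Figure D1:**
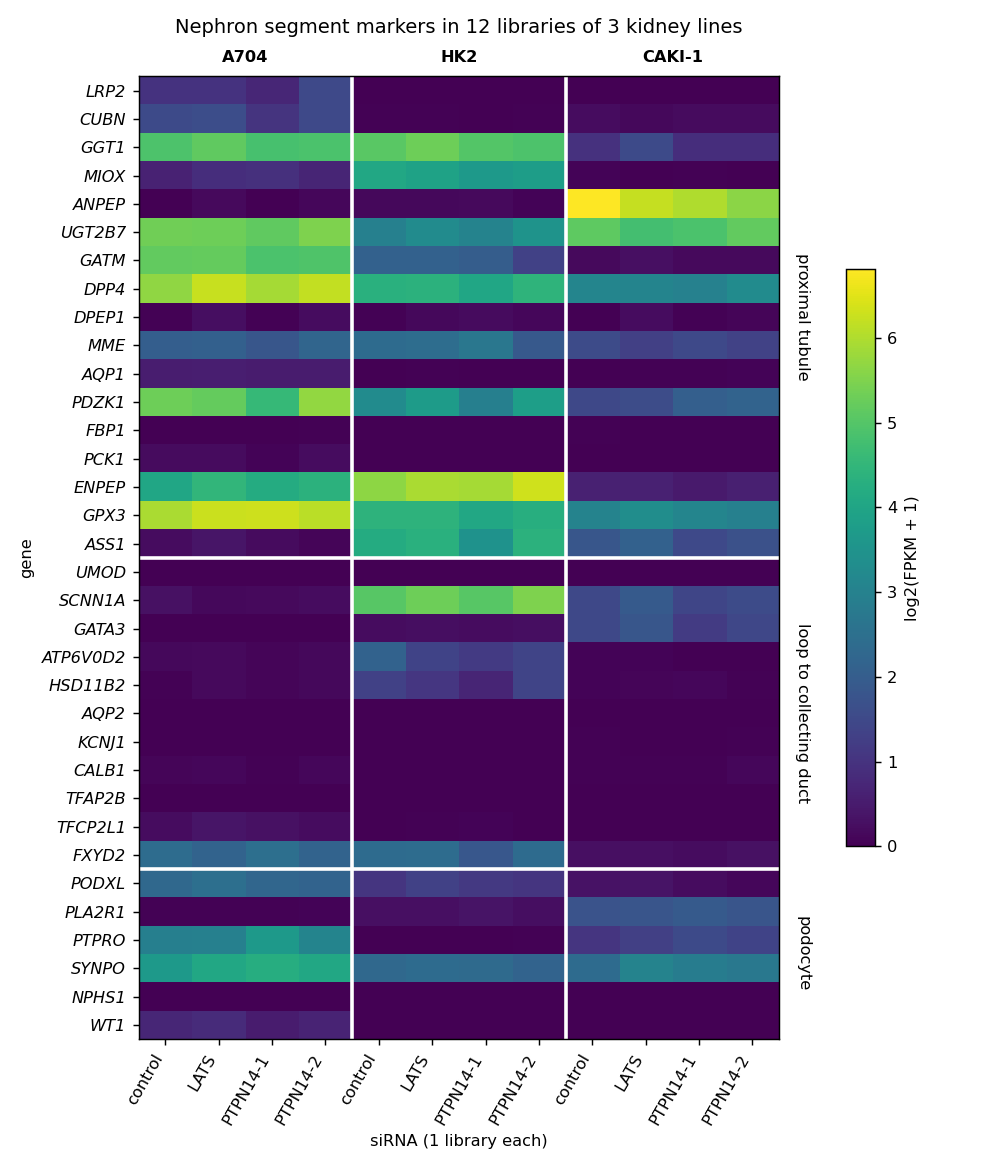
Each row is 1 of the 34 marker genes in the table and each column 1 of 12 libraries, grouped by line, with colour giving log2(FPKM + 1). Most genes hold 1 colour within a line and change at the white bars between lines: ANPEP is bright in CAKI-1 alone, SCNN1A and MIOX in HK2, and GATM in A704.

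Lines were compared on log2(FPKM + 1) with limma, in a model of line and siRNA. A line difference was called at an adjusted p under 0.05 with a log2 difference of at least 1. The test covered 12276 genes that exceeded FPKM 1 in 3 or more libraries, and these include 21 of the 35 markers (12 proximal tubule, 5 loop to collecting duct, 4 podocyte). The other 13 in the table did not pass that filter. A704 and HK2 differed at 15 of the 21 (9 higher and 6 lower in A704), where 32.6% of all tested genes were called. CAKI-1 and HK2 differed at 17 (5 higher and 12 lower in CAKI-1), against 25.8% of all genes. A704 and CAKI-1 differed at 16 (11 higher and 5 lower in A704), against 24.6%. A gene that passes the filter only through the line where it is high has to differ, so nothing is drawn from these shares. This applies to CUBN, MIOX, ANPEP, GATA3, ATP6V0D2, HSD11B2 and PLA2R1, whose line differences are descriptions. Without the filter the calls were 16, 17 and 17 of 31 markers, where 23.4, 18.5 and 17.7% of 17167 genes were called. Since a difference is taken on log2(FPKM + 1), it understates the change of low genes. The labels name no separate cultures behind the libraries of a line, and p-values therefore reflect only how these 12 libraries vary, which may be technical.

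ANPEP, UGT2B7 and PDZK1 are shown with the sequence before their start because ANPEP is high in only 1 line, UGT2B7 is the only marker called between the PTPN14 siRNAs, and PDZK1 is the only one whose window held the HNF4 core described below. The sequences are from RefSeq on GRCh38.p14 and run 5′ to 3′ on the gene's strand, over the 250 bases before the start (ANPEP without the 12 bases nearest the start, which GENCODE annotates as exon).
ANPEP, chr15:89814865-89815102, minus strand: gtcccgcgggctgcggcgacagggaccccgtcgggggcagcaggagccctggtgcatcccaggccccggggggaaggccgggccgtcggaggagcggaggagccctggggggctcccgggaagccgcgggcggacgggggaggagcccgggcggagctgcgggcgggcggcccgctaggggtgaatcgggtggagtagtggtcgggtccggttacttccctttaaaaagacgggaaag
UGT2B7, chr4:69096224-69096473, plus strand: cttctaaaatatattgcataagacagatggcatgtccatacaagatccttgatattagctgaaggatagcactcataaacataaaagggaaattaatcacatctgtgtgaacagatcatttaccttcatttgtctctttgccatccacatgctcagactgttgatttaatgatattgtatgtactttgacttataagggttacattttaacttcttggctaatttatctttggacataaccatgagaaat
PDZK1, chr1:145707401-145707650, minus strand: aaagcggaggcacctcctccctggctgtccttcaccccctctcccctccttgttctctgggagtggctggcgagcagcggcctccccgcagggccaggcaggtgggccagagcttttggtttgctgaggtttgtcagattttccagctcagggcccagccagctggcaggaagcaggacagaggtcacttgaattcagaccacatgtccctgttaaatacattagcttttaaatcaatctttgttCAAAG
All 3 lie within the gene's full GENCODE span and outside its annotated exons. The core of the HNF4 site (CAAAGTCCA), bound by nuclear receptors that drive many proximal tubule genes, was searched on both strands in the 300 bases from 250 before to 50 after each start. Windows were found for 28 of the 35 markers. The core was in those of 1 marker, PDZK1, and in 0.384% of 35116 windows of all genes. In PDZK1 it runs from position -5 to 4 around the start, so the capitals mark its 5 bases before the start. The 250 bases were 74% G or C in ANPEP, 55.6% in PDZK1 and 32.8% in UGT2B7, where the median over all windows was 58% and 3.61% of windows were at or below UGT2B7. A match is a description of letters only.

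The brush border peptidases were high in different lines. ANPEP (aminopeptidase N; chromosome 15, 89784889 to 89815401, minus strand, GRCh38) removes amino acids from the N-terminus of peptides. With control, LATS, PTPN14-1 and PTPN14-2 siRNA, the order used for all values below, it stood at 111, 72.9, 62.6 and 48.0 FPKM in CAKI-1, at 0.01, 0.13, 0.01 and 0.09 in A704, and at 0.10, 0.11, 0.13 and 0.04 in HK2. All CAKI-1 libraries lay far above all others. The log2 difference was 6.03 between CAKI-1 and HK2, given as a description because ANPEP passed the filter through CAKI-1 alone.

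ENPEP (aminopeptidase A; chromosome 4, 110365733 to 110565285, plus strand), which cleaves angiotensin II, was lowest in the line where ANPEP was highest. It stood at 49.8, 61.2, 58.3 and 78.8 FPKM in HK2, at 15.2, 21.5, 17.3 and 19.6 in A704, and at 0.53, 0.55, 0.41 and 0.51 in CAKI-1. The 3 lines did not overlap, and CAKI-1 was lower than HK2 by a log2 difference of -5.37 (SE 0.10) and A704 by -1.69 (SE 0.10). DPP4 (dipeptidyl peptidase 4; chromosome 2, 161992241 to 162074542, minus strand) cuts dipeptides off incretins and other peptides. Its FPKM was 50.3, 74.5, 58.5 and 71.2 in A704, 19.0, 19.7, 15.4 and 20.7 in HK2, and 7.61, 7.43, 6.95 and 8.71 in CAKI-1. Again no 2 lines overlapped, and the mean in A704 was 3.40-fold that in HK2 and 8.29-fold that in CAKI-1.

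GGT1 (gamma-glutamyltransferase 1; chromosome 22, 24583750 to 24629005, plus strand) breaks down glutathione at the brush border. It stood at 29.2, 34.4, 27.2 and 28.4 FPKM in A704, at 32.7, 38.7, 31.0 and 29.2 in HK2, and at 0.97, 1.87, 0.85 and 0.87 in CAKI-1. A704 and HK2 overlapped (log2 difference -0.13, SE 0.07, adjusted p = 0.101), while CAKI-1 lay below both and differed from HK2 by -4.00 (SE 0.07). Near-identical GGT copies and pseudogenes lie nearby, so its level is uncertain. MME (neprilysin; chromosome 3, 155024124 to 155183729, plus strand), which degrades natriuretic peptides, differed less between lines than the 4 peptidases above. Its FPKM was 3.09, 3.25, 2.52 and 3.69 in A704, 4.25, 4.44, 5.45 and 2.73 in HK2, and 1.93, 1.45, 1.81 and 1.52 in CAKI-1, and no pair of lines was called. All CAKI-1 libraries lay below those of A704 and HK2. CAKI-1 came closest to a call, at -0.94 (SE 0.14) against HK2. It was called at -1.11 without the HK2 PTPN14-2 library, and at -1.25 with 0.1 added to FPKM in place of 1. DPEP1 (dipeptidase 1) did not exceed 0.19 FPKM in any library.

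The endocytic receptors were low or absent outside A704. CUBN (cubilin; chromosome 10, 16823966 to 17129817, minus strand) stood at 1.88, 2.05, 1.02 and 1.85 FPKM in A704, at no more than 0.02 in HK2, and at 0.17, 0.10, 0.14 and 0.14 in CAKI-1. Its A704 libraries all lay above those of the other lines, by log2 differences of 1.39 against HK2 and 1.23 against CAKI-1 (SE 0.10 each). LRP2 (megalin; chromosome 2, 169127109 to 169362685, minus strand), its partner, stood at 1.01, 0.98, 0.66 and 1.83 FPKM in A704, did not pass the filter, and was listed at 0 in all 8 HK2 and CAKI-1 libraries. PDZK1 (chromosome 1, 145670852 to 145708148, minus strand) is a scaffold that holds transporters at the brush border. It stood at 38.8, 35.8, 22.7 and 50.9 FPKM in A704, at 8.83, 12.3, 6.73 and 13.2 in HK2, and at 1.78, 1.99, 3.14 and 3.5 in CAKI-1. The lines did not overlap, and the mean in A704 was 3.61-fold that in HK2 and 14.2-fold that in CAKI-1. AQP1, the water channel of the proximal tubule, was at 0.42 to 0.49 FPKM in A704 and at most 0.04 elsewhere.

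The metabolic enzymes, too, were highest in different lines. GATM (chromosome 15, 45361124 to 45402327, minus strand), which makes the creatine precursor guanidinoacetate, stood at 35.1, 36.0, 28.5 and 29.5 FPKM in A704, at 3.34, 3.37, 3.0 and 1.51 in HK2, and at 0.12, 0.22, 0.13 and 0.12 in CAKI-1. The 3 lines were separate, and A704 exceeded CAKI-1 by a log2 difference of 4.85 (SE 0.12). MIOX (myo-inositol oxygenase; chromosome 22, 50486784 to 50490648, plus strand) opens the inositol ring and is close to kidney-specific. It stood at 15.9, 14.3, 11.9 and 12.9 FPKM in HK2, at 0.57, 0.84, 0.93 and 0.62 in A704, and at 0.05, 0, 0.03 and 0 in CAKI-1. Only HK2 exceeded 1, and A704 was lower than HK2 by a log2 difference of -3.08 (SE 0.09).

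ASS1 (argininosuccinate synthase; chromosome 9, 130444929 to 130501274, plus strand) makes the precursor of arginine and has many processed pseudogenes, so its level is uncertain. It stood at 17.2, 19.0, 10.1 and 19.8 FPKM in HK2, at 2.54, 3.32, 1.85 and 2.21 in CAKI-1, and at 0.16, 0.30, 0.14 and 0.07 in A704. Here A704 was the lowest line, at a log2 difference of -3.87 (SE 0.12) from HK2. UGT2B7 (chromosome 4, 69051363 to 69112987, plus strand) joins glucuronic acid to drugs and steroids, and near-identical UGT2B genes could share its reads. It stood at 39.1, 39.0, 34.5 and 44.3 FPKM in A704, at 34.1, 26.5, 28.3 and 35.2 in CAKI-1, and at 6.84, 8.76, 7.21 and 10.3 in HK2. HK2 was lowest, by log2 differences of 2.13 from A704 and 1.79 from CAKI-1 (SE 0.09 each), and A704 and CAKI-1 overlapped. GPX3 (chromosome 5, 151020438 to 151028993, plus strand) is the glutathione peroxidase that the kidney secretes into plasma. It stood at 60.7, 76.2, 76.9 and 67.5 FPKM in A704, at 20.3, 20.2, 15.9 and 18.3 in HK2, and at 7.32, 9.16, 7.62 and 6.79 in CAKI-1, with no overlap. The gluconeogenic enzymes FBP1 (at most 0.03 FPKM) and PCK1 (at most 0.17, in A704, and 0 in the other lines) had the lowest maxima of the proximal tubule members.

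**Figure D2:**
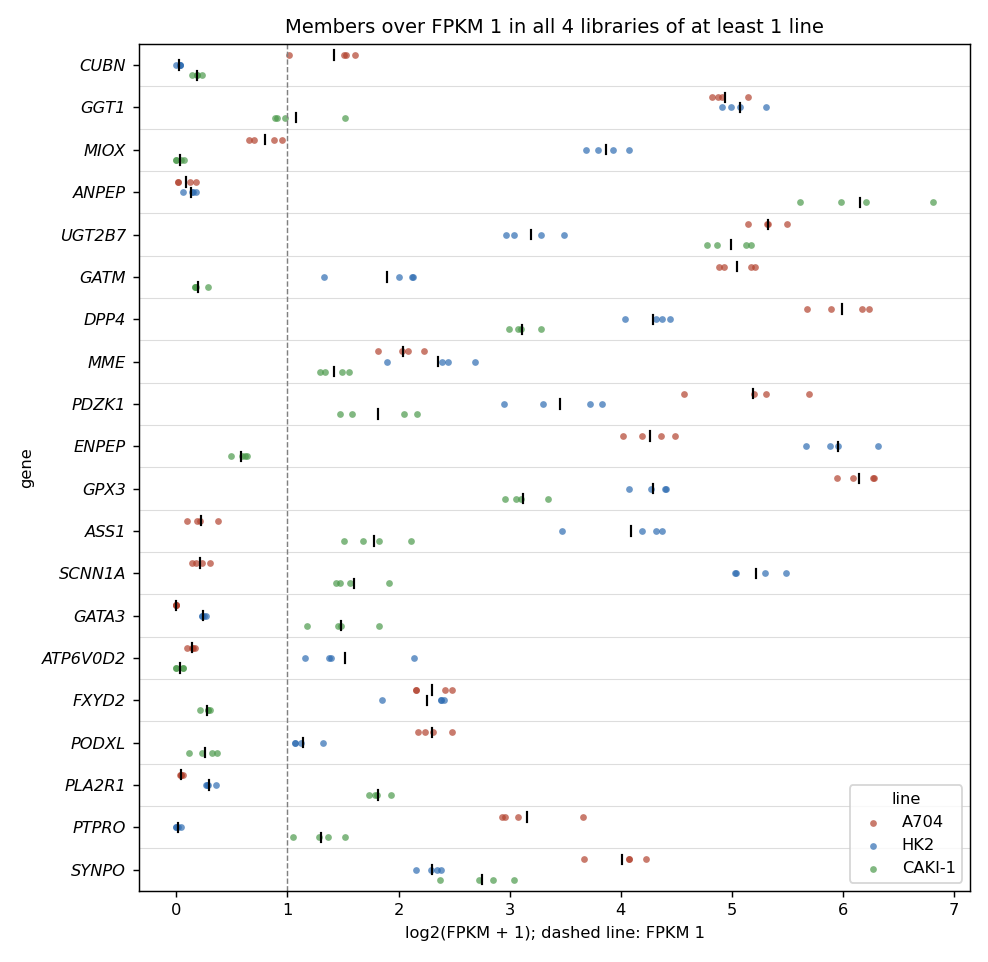
Each point is 1 library and each black bar the mean over a line's 4 libraries, as log2(FPKM + 1), for the 20 markers above FPKM 1 in all 4 libraries of at least 1 line. The 3 lines form separate groups for DPP4, ENPEP, GPX3, GATM and PDZK1, while A704 and HK2 overlap for GGT1 and FXYD2.

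Fewer of the 12 loop to collecting duct markers were found. HK2 held 3 of them above FPKM 1 in all 4 libraries, CAKI-1 2 and A704 1. The further list of 28 such genes gave another order, with 5 in A704 and 3 each in HK2 and CAKI-1. SCNN1A (chromosome 12, 6346843 to 6377730, minus strand), the alpha subunit of the epithelial sodium channel, stood at 31.8, 38.5, 32.0 and 43.9 FPKM in HK2, at 1.78, 2.78, 1.70 and 1.95 in CAKI-1, and at 0.23, 0.10, 0.13 and 0.17 in A704. The lines did not overlap, and A704 differed from HK2 by -5.01 (SE 0.10, adjusted p = 9.41e-14, limma). Its partner subunits SCNN1B and SCNN1G, from a further list, averaged at most 0.005 FPKM in every line. FXYD2 (chromosome 11, 117800844 to 117828698, minus strand), the gamma subunit of the sodium pump, stood at 4.34, 3.47, 4.59 and 3.47 FPKM in A704, at 4.23, 4.32, 2.60 and 4.23 in HK2, and at 0.22, 0.22, 0.16 and 0.23 in CAKI-1. A704 and HK2 overlapped (log2 difference 0.05, SE 0.12, adjusted p = 0.724), and CAKI-1 lay below both.

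ATP6V0D2, a proton pump subunit of intercalated cells, stood at 3.42, 1.59, 1.23 and 1.63 FPKM in HK2 and at 0 to 0.12 in the other lines. The HK2 control library was the highest of the 12. GATA3 (chromosome 10, 8045378 to 8075203, plus strand), a transcription factor of the distal nephron, stood at 1.79, 2.54, 1.26 and 1.75 FPKM in CAKI-1, at 0.17 to 0.20 in HK2 and at 0 in all 4 A704 libraries. HSD11B2 (chromosome 16, 67430652 to 67437553, plus strand) inactivates cortisol and so protects the mineralocorticoid receptor. It stood at 1.51, 1.11, 0.62 and 1.64 FPKM in HK2 and at 0.03 to 0.12 elsewhere. Its log2 differences were -1.02 (A704 against HK2) and -1.04 (CAKI-1 against HK2), given as descriptions because HSD11B2 passed the filter through HK2 alone. Both lay close to a size of 1. The first fell short of that size without the HK2 control, HK2 PTPN14-2, A704 control or A704 PTPN14-2 library (-0.92 to -0.99). It also did so with quantile normalisation (-0.99). The second fell short without the HK2 control, HK2 PTPN14-2 or CAKI-1 PTPN14-2 library (-0.95 to -0.98). UMOD (uromodulin, of the thick ascending limb), AQP2 and TFAP2B were listed at 0 throughout. KCNJ1 (the ROMK channel) reached 0.02 FPKM, CALB1 (calbindin) 0.09 and TFCP2L1 (a collecting duct transcription factor) 0.30.

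Of the podocyte genes, SYNPO exceeded FPKM 1 in every line, PODXL, PTPRO and PLA2R1 in 1 or 2 lines, and nephrin was at most 0.01. SYNPO (synaptopodin, an actin-associated protein; chromosome 5, 150601080 to 150659220, plus strand) stood at 11.7, 15.8, 17.8 and 15.9 FPKM in A704, at 3.91, 4.22, 4.10 and 3.47 in HK2, and at 4.19, 7.21, 6.23 and 5.62 in CAKI-1. A704 lay above both others, by log2 differences of 1.71 and 1.26 (SE 0.10 each), while HK2 and CAKI-1 overlapped at their edge. PODXL (podocalyxin, an anti-adhesive sialoprotein; chromosome 7, 131500262 to 131558217, minus strand) stood at 3.97, 4.60, 3.71 and 3.53 FPKM in A704, at 1.09, 1.5, 1.17 and 1.09 in HK2, and at 0.25, 0.29, 0.17 and 0.08 in CAKI-1. The order A704, HK2, CAKI-1 held with no overlap.

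PTPRO (the receptor phosphatase GLEPP1; chromosome 12, 15322397 to 15597399, plus strand) stood at 6.65, 6.80, 11.6 and 7.41 FPKM in A704, at 1.07, 1.44, 1.87 and 1.57 in CAKI-1, and at no more than 0.03 in HK2. A704 exceeded HK2 by a log2 difference of 3.14 (SE 0.11). PLA2R1 (the phospholipase A2 receptor, the main autoantigen of membranous nephropathy; chromosome 2, 159932006 to 160062610, minus strand) was highest in CAKI-1. It stood at 2.32, 2.46, 2.82 and 2.50 FPKM in CAKI-1, at 0.20 to 0.28 in HK2 and at 0.02 to 0.04 in A704. NPHS1 (nephrin) reached 0.01 FPKM at most. WT1, a transcription factor of podocytes, was at 0.66, 0.80, 0.44 and 0.59 FPKM in A704 and listed at 0 in all 8 other libraries.

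Further lists of the same segments gave counts in the same lines, at the same call. Of all tested genes, 32.6% were called between A704 and HK2, 25.8% between CAKI-1 and HK2 and 24.6% between A704 and CAKI-1. The counts for these lists and those below are descriptions. Of 31 further proximal tubule genes, 18 were at or below FPKM 1 in all 12 libraries and 12 were tested. A704 exceeded HK2 at 9 of the 12 and was lower at 0 (median log2 difference 2.39, against -0.04 over all tested genes), and it exceeded CAKI-1 at 8 and was lower at 0 (median 1.89, against -0.03). CAKI-1 exceeded HK2 at 3 and was lower at 5. The 4 with the highest level were SLC17A3 (an organic anion transporter; mean 255 FPKM in A704, 6.20 in HK2, 0.935 in CAKI-1), SLC4A4 (the sodium bicarbonate cotransporter; 39.8, 3.69 and 11.04), SLC17A1 (a phosphate and urate transporter; 29.4, 2.28 and 0.432) and SLC3A1 (the cystine transporter's heavy chain; 19.1, 0.37 and 0.107). SLC17A3 had the largest log2 difference of the 4 between A704 and HK2, at 5.13 (SE 0.17). That of SLC3A1, at 3.82 (SE 0.15), is understated by its low level in HK2. It is given as a description, because SLC3A1 passed the filter through A704 alone.

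Of 28 further loop to collecting duct genes, 19 were at or below 1 in all 12 libraries and 7 were tested. A704 exceeded HK2 at 3 and was lower at 1 (32.6% of all tested genes were called). CAKI-1 exceeded HK2 at 2 and was lower at 0 (25.8%), and A704 exceeded CAKI-1 at 3 and was lower at 0 (24.6%). CA2 (carbonic anhydrase 2, which the proximal tubule also expresses) had the highest level, with means of 191, 24.9 and 99.3 FPKM in the order A704, HK2, CAKI-1. EGF followed (5.98, 0.877 and 1.63), then AVPR2, the vasopressin receptor (1.39, 0.26 and 3.15), and NR3C2, the mineralocorticoid receptor (0.307, 2.34 and 0.755). Of 19 further podocyte genes in the table, 10 were tested, and A704 exceeded HK2 at 3 and was lower at 1. CAKI-1 exceeded HK2 at 1 and was lower at 2, and A704 exceeded CAKI-1 at 4 and was lower at 1. The shares of all tested genes are those just given, and nothing is drawn from these counts. The most abundant were KIRREL (69.1, 43.3 and 159), ACTN4 (92.0, 112 and 86.6), CD2AP (46.5, 54.5 and 18.4) and MYO1E (26.7, 17.0 and 29.3), which many other cells also use.

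Transcription factors that set kidney epithelial fate were tested at 10 of 18. A704 exceeded HK2 at 4 and was lower at 2 (32.6% of all tested genes were called). CAKI-1 exceeded HK2 at 1 and was lower at 2 (25.8%), and A704 exceeded CAKI-1 at 5 and was lower at 1 (24.6%). PAX8, a lineage factor of the whole nephron epithelium, averaged 22.6 FPKM in A704, and 77.4 in HK2 and 45.5 in CAKI-1. In the same order of lines, ELF3 averaged 15.1, 8.86 and 45.4. HNF4G averaged 17.2, 1.56 and 2.24, while HNF4A, named here after its values were seen because it drives many proximal tubule genes, did not exceed a mean of 0.005 in any line. Of 12 markers of injured or dedifferentiated tubule, 10 exceeded FPKM 1 in all 4 A704 libraries, 8 in HK2 and 11 in CAKI-1. The 4 with the highest level were SPP1 (osteopontin), which averaged 3197, 1197 and 1507 FPKM, VIM (vimentin; 1541, 378 and 978), CD24 (926, 103 and 205) and VCAM1 (245, 29.3 and 271). In contrast, LCN2 was at 0 in all 4 A704 libraries and PROM1 did not exceed 0.83 in any library, both named after their values were seen. Of 11 injured tubule markers tested, A704 exceeded HK2 at 6 and was lower at 1 (32.6% of all tested genes were called). CAKI-1 exceeded HK2 at 6 and was lower at 1 (25.8%), and A704 exceeded CAKI-1 at 3 and was lower at 2 (24.6%). Pan-epithelial keratins KRT8 (380, 142 and 222) and KRT18 (294, 92.9 and 84.5) were present in every line. The same list's EPCAM (0.145, 28.6 and 0.425) and CDH1 (18.5, 0.0475 and 0.13), named after their values were seen, were each low in all but 1 line. CDH2 (N-cadherin) averaged 106, 29.9 and 32.1, and CDH16, the kidney cadherin, 67.2, 0.965 and 4.55; of the 7 genes of that list A704 exceeded HK2 at 5 and was lower at 2.

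**Figure D3:**
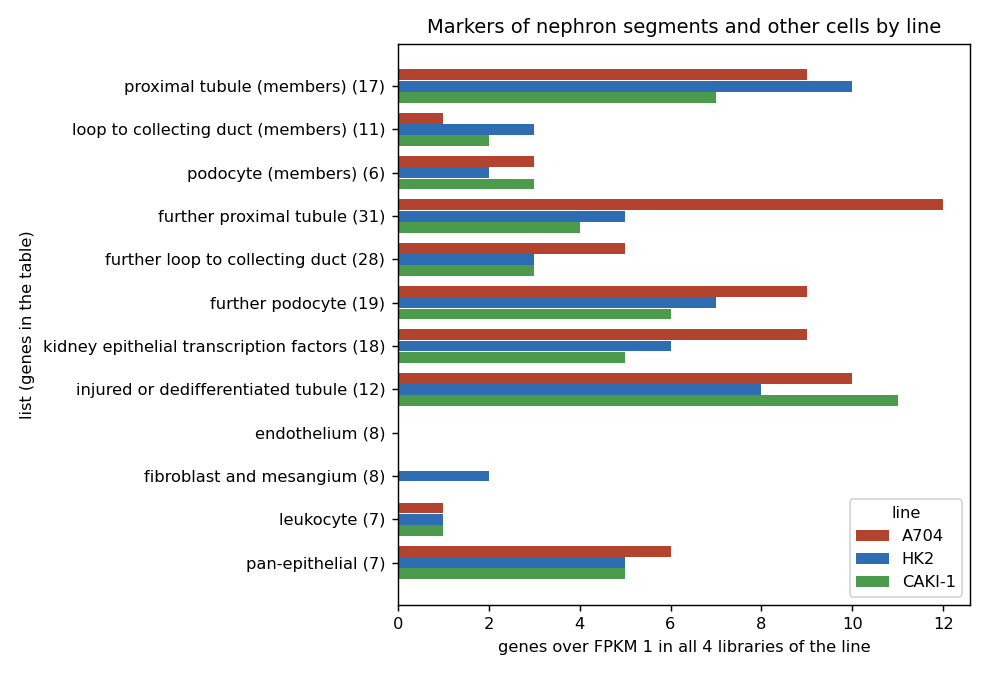
Bars give the number of genes above FPKM 1 in all 4 libraries of a line for each list, with the number of listed genes in the table in brackets. A704 holds 12 of the 31 further proximal tubule genes against 5 in HK2 and 4 in CAKI-1, and no endothelial gene is counted in any line.

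Differences between siRNAs were small beside those between lines. With line as a block, the LATS siRNA against control gave 0 of 21 markers called at an adjusted p under 0.05, where 0.122% of all tested genes were called; limma's unadjusted p was under 0.05 for 3 (ENPEP, SYNPO and GGT1). The log2 differences ran from -0.25 (ATP6V0D2) to 0.38 (SYNPO), with a median of 0.09, and the smallest adjusted p was 0.198 (GGT1). PTPN14-1 against control also gave 0 of 21, against 5.87% of all genes, with 4 at an unadjusted p under 0.05 (SYNPO, ATP6V0D2, ASS1 and PTPRO). Its differences ran from -0.36 (ATP6V0D2) to 0.40 (PTPRO), with a smallest adjusted p of 0.0742 (SYNPO). PTPN14-2 against control gave 0 of 21, against 1.35% of all genes, with 5 at an unadjusted p under 0.05 (PDZK1, DPP4, UGT2B7, ENPEP and GATM). Its differences ran from -0.39 (ANPEP) to 0.54 (PDZK1), with a smallest adjusted p of 0.189 (ENPEP). The 3 comparisons share their control libraries.

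Single libraries bore on these counts. With PTPN14-1, ASS1 was called at -0.53 (adjusted p = 0.0364) without the A704 PTPN14-1 library, SYNPO at 0.52 (0.0267) without the HK2 control, PTPRO at 0.56 (0.0327) without the HK2 PTPN14-1 library, and PDZK1 at -0.53 (0.0386) without the CAKI-1 PTPN14-1 library. With PTPN14-2, PDZK1 was called at 0.54 (0.0353) without the CAKI-1 PTPN14-1 library. Over all genes, the LATS siRNA's 15 calls fell to between 3 and 8 without any 1 control or LATS library or the HK2 PTPN14-1 library. The 720 calls for PTPN14-1 fell to between 200 and 332 without any 1 control library or HK2 PTPN14-1. The 166 for PTPN14-2 fell to between 34 and 92 without any 1 control or PTPN14-2 library and rose to 252 without A704 PTPN14-1.

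Within a line there was 1 library for each siRNA, so no test was possible, and a log2 difference of at least 0.5 was taken as a large one. In A704, 1 of the 21 markers passed it with LATS siRNA (background 2.2% of tested genes), 4 with PTPN14-1 (6.48%) and 0 with PTPN14-2 (1.84%). In HK2, 1 passed with LATS siRNA (1.53%), 4 with PTPN14-1 (7.03%) and 5 with PTPN14-2 (3.08%). In CAKI-1, 3 passed with LATS siRNA (3.04%), 2 with PTPN14-1 (4.15%) and 2 with PTPN14-2 (3.72%). That makes 22 of 189 values for markers (11.6%) and 4060 of 110484 for all tested genes (3.67%). No marker passed in all 3 lines with any siRNA, and the single difference of at least 1 was that of ANPEP in CAKI-1 with PTPN14-2, at -1.20.

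ANPEP and ATP6V0D2 held 6 of the 22, and in each case the control library was the extreme one. The CAKI-1 control stood at 111 FPKM of ANPEP, above 48.0 to 72.9 in the 3 other CAKI-1 libraries, giving log2 differences of -0.60 (LATS), -0.82 (PTPN14-1) and -1.20 (PTPN14-2). The HK2 control stood at 3.42 FPKM of ATP6V0D2, above 1.23 to 1.63, giving -0.77, -0.99 and -0.75. Each set of 3 differences shares 1 control library. For a PTPN14 effect that differs between lines, limma called 0 of 21 markers and 0% of all genes, with 106 genes at an unadjusted p under 0.05. In that limma test ANPEP and ATP6V0D2 were the only markers at an unadjusted p under 0.05 (0.0126 and 0.00661). Each was at most 0.13 FPKM in its other lines, where log2(FPKM + 1) can hardly change, so nothing is drawn from this. With 0.1 added to FPKM in place of 1, 0 markers had an unadjusted p under 0.05.

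SYNPO had the smallest adjusted p of the 21 with PTPN14-1. With LATS siRNA it was higher than control in all 3 lines, by 0.66 in CAKI-1, 0.40 in A704 and 0.09 in HK2, and with PTPN14-1 by 0.48, 0.56 and 0.05. With PTPN14-2 it was higher in A704 (0.41) and CAKI-1 (0.35) and lower in HK2 (-0.14). Of the 21 markers, 7 were higher with LATS siRNA than control in all 3 lines and 0 lower, where 18.2% of all tested genes were higher and 19% lower. With PTPN14-1, 1 was higher in all 3 (20.6% of all genes) and 4 lower (ASS1, ATP6V0D2, CUBN and GGT1; 21% of all genes). With PTPN14-2, 4 were higher (DPP4, PDZK1, PTPRO and UGT2B7; 20.9%) and 1 lower (GGT1; 21.6%). None of these reached the adjusted threshold.

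**Figure D4:**
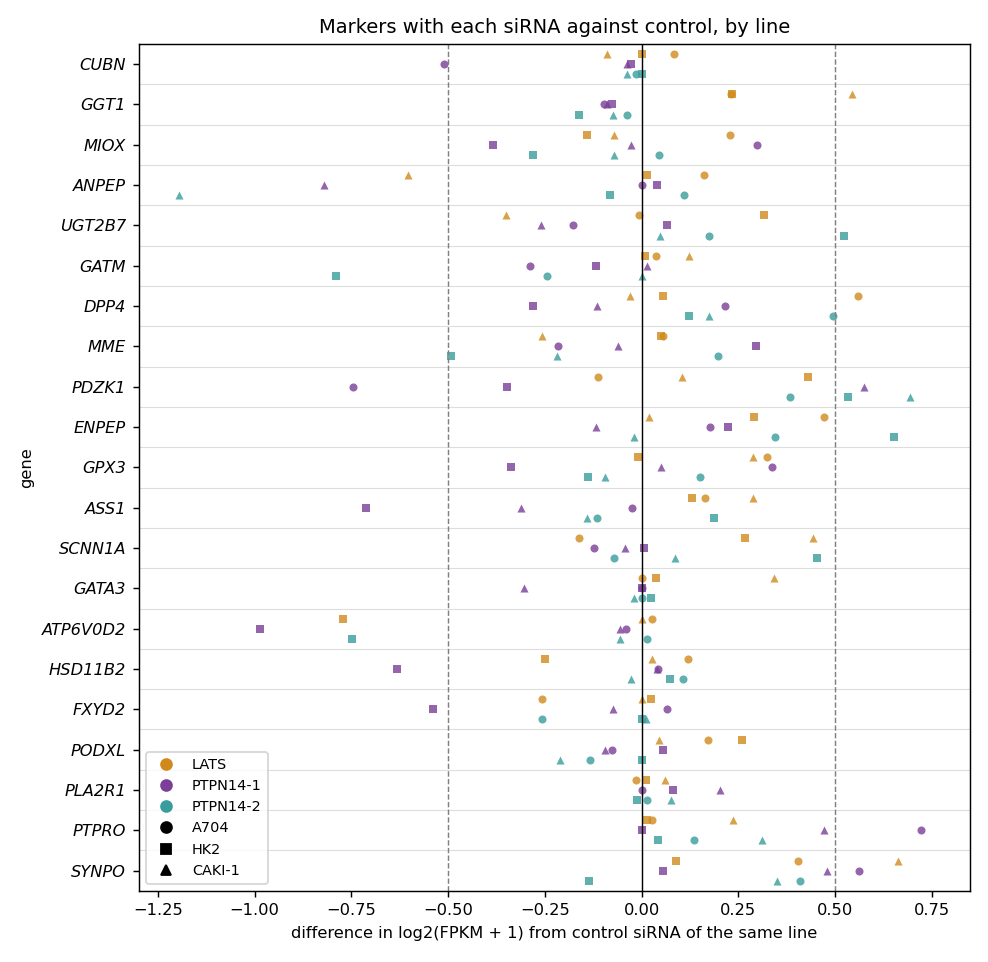
Each mark is 1 library's difference in log2(FPKM + 1) from the control siRNA of the same line, for the 21 tested markers, with colour for the siRNA and shape for the line. Most marks lie between the dashed lines at -0.5 and 0.5, and the lowest are ANPEP in CAKI-1 and ATP6V0D2 in HK2.

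The PTPN14 siRNAs differed from each other at more genes than either did from control, 11.7% of those tested (1437), and this count fell to between 742 and 876 without any 1 PTPN14-2 library or HK2 PTPN14-1. Of the 21 markers 1 was called: UGT2B7 stood lower with PTPN14-1, at a log2 difference of -0.37 from PTPN14-2 (SE 0.10, adjusted p = 0.0345, limma). It was lower in all 3 lines, at -0.46 in HK2, -0.35 in A704 and -0.31 in CAKI-1. The call was lost without any 1 of the 6 PTPN14 libraries (adjusted p 0.0697 to 0.140). PDZK1 (-0.71, SE 0.21, adjusted p = 0.0542) and DPP4 (-0.32, SE 0.10, adjusted p = 0.0598) were also lower in all 3 lines and missed the threshold. DPP4 was called without the A704 control (0.0258) or CAKI-1 LATS library (0.0443). PDZK1 was called without the HK2 LATS (0.0478) or CAKI-1 LATS library (0.0319) and, at -1.06, without CAKI-1 PTPN14-1 (5.92e-04). ASS1, at -0.33 (adjusted p = 0.162), was called at -0.51 (0.0327) without A704 PTPN14-1. PTPN14 itself differed by -0.44 (SE 0.11, adjusted p = 0.0213), a call lost without either A704 PTPN14 library, HK2 PTPN14-2 or CAKI-1 PTPN14-1.

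Further proximal tubule genes were lower with PTPN14-1 than with PTPN14-2 at 4 of 12 tested and higher at 0 (median -0.33, against 0.01 over all tested genes). In that comparison 11.7% of all tested genes were called, and the list counts here and below are descriptions. ACMSD, a tryptophan pathway enzyme named after its values were seen, differed by -0.97 (SE 0.18, adjusted p = 0.00621) and SLC4A4 by -0.47 (SE 0.10, adjusted p = 0.00784), and neither call was lost when any 1 library was left out. SLC17A3 (-0.81, SE 0.19, adjusted p = 0.0206) and SLC17A1 (-0.80, SE 0.20, adjusted p = 0.0213) lost their call without either PTPN14 library of A704 or of HK2. SLC17A3 stood at 260, 198, 165 and 397 FPKM in A704, at 6.14, 5.56, 3.63 and 9.47 in HK2, and at 0.85, 0.97, 0.96 and 0.96 in CAKI-1. In A704 and HK2 the control lay between the PTPN14 siRNAs, and in CAKI-1 the libraries hardly differed. Against control, SLC4A4 was the only one of the 12 called, higher with PTPN14-2 by 0.59 (SE 0.10, adjusted p = 0.0115). That call was lost without any 1 PTPN14-2 library, the HK2 control or the CAKI-1 control.

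Among kidney transcription factors, HNF4G was lower with PTPN14-1 than with control by -0.51 (SE 0.10, adjusted p = 0.0117), a call lost without the A704 control, HK2 control or HK2 PTPN14-1 library. It was lower than with PTPN14-2 by -0.73 (SE 0.10, adjusted p = 7.5e-04), a call kept without any 1 library. HNF4G stood at 18.4, 15.5, 11.2 and 23.6 FPKM in A704, at 1.92, 1.46, 0.91 and 1.94 in HK2, and at 2.23, 2.07, 1.69 and 2.98 in CAKI-1, with PTPN14-1 lowest in each line. Of the 7 pan-epithelial genes, 2 were lower with PTPN14-1 than PTPN14-2 and 1 higher, where 11.7% of all tested genes were called. Those lower were CDH16, by -0.53 (SE 0.12, adjusted p = 0.0142), and CDH6, by -0.61 (SE 0.18, adjusted p = 0.0486). KRT18 was higher, by 0.40 (SE 0.10, adjusted p = 0.0182). CDH16 lost its call without either HK2 PTPN14 library, KRT18 without HK2 PTPN14-2 or CAKI-1 PTPN14-1, and CDH6 without any 1 library except A704 PTPN14-1, A704 PTPN14-2 and CAKI-1 LATS. In the comparison of PTPN14-1 with control, CDH2 passed the test at 0.32 (SE 0.08, adjusted p = 0.0406). Leaving out any 1 control or PTPN14-1 library, or CAKI-1 PTPN14-2, ended that call.

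Of the 7 further loop to collecting duct genes, 2 were lower with PTPN14-1 than PTPN14-2 and 0 higher (11.7% of all tested genes were called). These were CA2, at -0.54 (SE 0.10, adjusted p = 0.00392), kept without any 1 library, and NR3C2, at -0.42 and lost without either HK2 PTPN14 library. Of 10 further podocyte genes, 1 was higher and 1 lower (against the same 11.7%). CD2AP was higher by 0.41, a call lost without A704 PTPN14-2, either HK2 PTPN14 library or CAKI-1 PTPN14-1, and MYO1E was lower by -0.30, lost without HK2 PTPN14-2 or either CAKI-1 PTPN14 library. Of 11 markers of injured tubule, 2 were higher and 2 lower (again against 11.7%). ITGB6, an integrin subunit, was lower by -0.71, kept without any 1 library. CD24 was lower by -0.63, lost without either A704 PTPN14 library, HK2 PTPN14-1 or CAKI-1 PTPN14-2. VIM was higher by 0.34, lost without the HK2 or CAKI-1 control or any PTPN14 library of these lines, and KRT7 by 0.49, lost without either PTPN14 library of A704 or CAKI-1. CDH6, KRT7 and ITGB6 are named here after their values were seen.

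**Figure D5:**
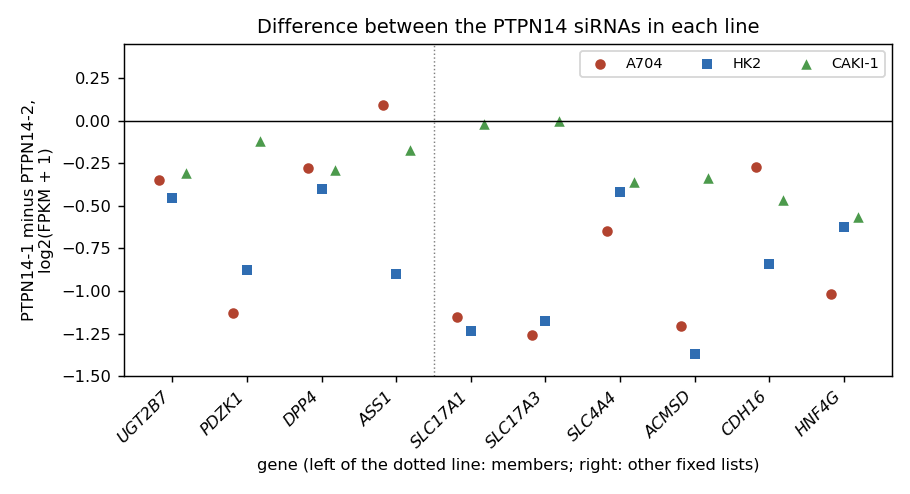
Each mark is the difference in log2(FPKM + 1) between the PTPN14-1 and PTPN14-2 libraries of 1 line, for 4 markers (left of the dotted line) and 6 genes of other lists. The genes were picked on this difference. The 4 markers had an unadjusted p under 0.05 in limma, and the 6 others are some of those called lower with PTPN14-1. Markers not shown went either way, such as SYNPO (0.13 to 0.19) and ENPEP (-0.43 to -0.10). UGT2B7 and DPP4 lie below 0 in all 3 lines, PDZK1 is lowest in A704 and HK2, and SLC17A1 and SLC17A3 are near 0 in CAKI-1.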

How the data were processed

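PolyA RNA-seq libraries of 3 kidney lines with 4 siRNAs each were analysed from 1 table in which the authors deposited FPKM values, with 2 decimals; that they are FPKM is read from the values themselves. Libraries came from a stranded kit per the labels' protocols, and the submitters' processing notes name STAR 2.4.0g1 and GRCh38.p1. The counter, its strand setting and its annotation were not given in the sources used here. All value columns matched a sample title. Values were tested as log2(FPKM + 1) with limma 3.58.1 (R 4.3.3, trend and robust moderation, statmod 1.5.0) in a model of line and siRNA with 6 residual degrees of freedom; the effect of PTPN14 by line used 9 groups with 3. Genes over FPKM 1 in 3 or more libraries entered, with Benjamini-Hochberg adjustment over all of them. The fit was tested on simulated data. Libraries of 1 line pair because they are the same cells, so line is the block in the fit. Depth was estimated from whole-read steps of single-exon genes (84.1 to 100% on a step, against 11.1 to 16.7% at other depths), and the file gives no counts, so no counting interval is given. The markers and lists were chosen with earlier results of these data known. By rule all 35 are accounted for, those above FPKM 1 in all 4 libraries of a line by their values, and up to 4 genes a list by level; others are named as chosen later. Among the kidney transcription factors, 1 gene that the rule names and 1 related motif search are not reported here. Coordinates are from GENCODE 29 (GRCh38) and promoters from RefSeq (GRCh38.p14). Alternatives were another pseudocount, filter, normalisation, moderation and block, and leaving out each library.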

Additional observations from a re-analysis of the deposited data

Results flagged for a closer look

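For each marker above FPKM 1 in a line, the highest and lowest of the line's 4 libraries were compared with the nearest other by Dixon's criterion (the gap as a share of the range, at the 95% level). Of 40 such groups, 3 were picked out, where chance picks about 1 in 20. CUBN in A704 was low with PTPN14-1, at 1.02 FPKM against 1.85 to 2.05 in the 3 other libraries. GATM in HK2 was low with PTPN14-2, at 1.51 FPKM against 3.0 to 3.37. FXYD2 in HK2 was low with PTPN14-1, at 2.60 FPKM against 4.23 to 4.32.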

How the results depend on the processing

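Over the alternatives run, no called difference changed sign. Line differences of the markers kept their side of the threshold in 1153 of 1176 refits and siRNA differences in 1484 of 1505. Nearly all siRNA differences were uncalled from the start, so the latter share says little about them. The 1 that was called, UGT2B7 between the PTPN14 siRNAs, lost its call in 8 refits. With adjusted p alone as the rule, 10382, 10031 and 9954 genes were called between A704 and HK2, CAKI-1 and HK2, and A704 and CAKI-1. A filter of FPKM 1 in at least 6 libraries left 11 markers called between CAKI-1 and HK2, because fewer were tested. Genes called without the filter numbered 3 (LATS), 355 (PTPN14-1) and 60 (PTPN14-2), and 2 for the interaction; without line as a block, 0 in each siRNA comparison, and with both PTPN14 siRNAs as 1 group, 3 for LATS and 3 for PTPN14 against control. Leaving out 1 library gave 3 to 20 genes for LATS, 200 to 830 for PTPN14-1, 34 to 252 for PTPN14-2 and 742 to 1638 between the PTPN14 siRNAs. Markers called ran from 0 to 1 for PTPN14-1 and for PTPN14-2, and from 0 to 3 between them; that last count was 0 without the filter or the block and 2 with quantile normalisation or without trend and robust moderation. The UGT2B7 call had adjusted p 0.0777 without the filter. Within lines, 287 gene values and 1 marker value differed by at least 1, and with a pseudocount of 0.1 9005 and 42 passed 0.5. No paired analysis beyond the line block was possible because the labels give no replicate numbers. The causes of these shifts were not tested. At 17.0 M reads or more, levels near 0.01 FPKM rest on few reads.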
